A study of Mus musculus with 45 samples.

Results

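The expression of 10 genes of membrane-anchored serine proteolysis was followed in 45 RNA libraries, out of 55367 gene symbols in the count table. The genes were the proteases Tmprss11e, St14, Prss8, Tmprss2, Tmprss4 and Prss22, the inhibitors Spint1 and Spint2, and the urokinase gene Plau with its receptor Plaur. They were listed by name, and the list was chosen by a measured value, the counts of Tmprss11e, which had been seen in 4T1 tumors alone. The levels of the genes in 4T1 tumors, set against the other tumors or tissues, are therefore given as a description without a test.

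Female BALB/c mice carried subcutaneous polycaprolactone scaffolds, which are porous implants that take up host cells. They then received 67NR, 4T07 or 4T1 cells in 50 µL into the fat pad of the 4th right mammary gland, or were healthy controls without tumor cells that carried scaffolds too. The 3 lines are sister lines of 1 spontaneous mammary tumor: 67NR forms primary tumors without metastasis, 4T07 disseminates without forming visible metastases, and 4T1 metastasizes. Tumors of the 3 lines, and scaffolds, lungs and spleens of the 4 kinds of mice, were taken on day 14, with 3 libraries in each of the 15 groups. Each line stands for 1 cell population, and nothing in the labels ties tissues to a mouse, so errors measure the spread between libraries.

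Membrane-anchored serine proteases are trypsin-like enzymes held at the surface of epithelial cells, where they cut growth factor precursors, receptors, ion channels and junction proteins. Matriptase (St14) and prostasin (Prss8) activate each other, and the Kunitz inhibitors HAI-1 (Spint1) and HAI-2 (Spint2) hold them in check. Urokinase (Plau) is a secreted protease that binds its anchored receptor (Plaur) and turns plasminogen into plasmin, in stromal and immune cells as well as in epithelium.

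Levels are CPM, counts scaled to a common library total. The libraries were 3′ tag libraries, so a level is not divided by transcript length. Totals ranged from 3491888 to 8175380 counts, and a level resting on 3 counts or fewer in a library was taken as the floor, which lay between 0.452 and 0.831 CPM as a mean over a group. Intervals and floors of this kind cover counting error only. Of the 10 genes, all passed the count filter in tumors (Tmprss11e through the 4T1 tumors alone), 8 in scaffolds and lungs, and 6 in spleens. Log2 fold changes and adjusted p-values come from edgeR's quasi-likelihood test after TMM scaling, and a gene was called at a fold change over 2 with an adjusted p under 0.05 in tumors or under 0.10 in the other tissues. TMM scaling moved the log2 differences from 67NR tumors by -0.25 for 4T07 and -0.20 for 4T1 tumors relative to CPM. For genes higher than in 67NR tumors, CPM folds thus exceed the fitted ones, and for lower genes they fall short.

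Promoter sequences from RefSeq (GRCm38.p6) were at hand for Spint1, Spint2, Tmprss2 and Plaur, and the 130 bases from 120 before to 10 after the start are shown for the 3 whose levels were higher in every 4T1 tumor than in every 67NR tumor. Capitals mark the E-box CAGGTG (or CACCTG), a pattern bound by the Snail and Zeb repressors of epithelial genes, in Spint2, and the AP-1 pattern TGACTCA (or TGAGTCA) in Spint1 and Plaur. The stretches lie at chr2:119237240-119237369 (plus strand) for Spint1, chr7:29281968-29282097 (minus strand) for Spint2 and chr7:24462363-24462492 (plus strand) for Plaur.
Spint1: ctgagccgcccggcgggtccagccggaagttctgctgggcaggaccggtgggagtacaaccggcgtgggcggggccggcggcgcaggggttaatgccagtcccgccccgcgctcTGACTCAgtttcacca
Spint2: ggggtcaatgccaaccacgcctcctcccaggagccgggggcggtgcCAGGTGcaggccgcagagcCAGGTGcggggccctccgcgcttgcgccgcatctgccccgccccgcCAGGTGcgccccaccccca
Plaur: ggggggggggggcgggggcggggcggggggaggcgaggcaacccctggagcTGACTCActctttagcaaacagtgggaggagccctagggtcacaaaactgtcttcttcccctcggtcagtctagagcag
Spint2 held 3 E-boxes, starting 74, 55 and 9 bases before the start. Of 32851 mouse promoters of 300 bases, 20.2% held at least 1 such pattern on either strand and 0.365% held 3 or more. The AP-1 pattern started 6 bases before the start in Spint1 and 69 bases before it in Plaur, and 5.2% of promoters held it. No E-box or AP-1 pattern lay in the 300 bases of Tmprss2. These matches describe letters only.

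Tmprss11e encodes a type II transmembrane serine protease, DESC1, known from squamous epithelium. Its level was 145, 123 and 127 CPM in the 3 4T1 tumors (132 ± 11.5, SD, n = 3), and no count fell on it in any 67NR or 4T07 tumor. Against the floor of 3 counts, the 4T1 tumors were at least 159-fold higher than 67NR tumors and at least 199-fold higher than 4T07 tumors. Of its 1993 counts, 1985 came from the 4T1 tumors. The remaining 8 lay in 7 of the other 42 libraries, with at most 2 in one. In the scaffolds of 4T1 mice no count was found, and in their lungs the levels were 0.161, 0 and 0.15 CPM, all under the floor, so that any transcript there was not detectable at this depth.

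Tmprss11e lies in a cluster of related genes, and its protein-coding neighbours within that cluster, in RefSeq gene order, had few counts or none. Tmprss11b, the next gene on one side, had 6 counts in the 4T1 tumors, Tmprss11a and Tmprss11f had 3 each, Tmprss11d and Tmprss11g had 1 each, and Tmprss11c had 0. In no library did any of these 6 genes exceed 12 counts. Ythdc1, a reader of RNA methylation next to Tmprss11e on the other side, had 1421 counts in the 4T1, 633 in the 67NR and 1414 in the 4T07 tumors. Among the protein-coding genes of this stretch, high counts thus belonged to Tmprss11e and to Ythdc1. Genes of other kinds there were not looked at.

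The genes whose levels followed Tmprss11e most closely over the 45 libraries, by Pearson correlation of log2(CPM + 1) among 14980 genes that reached 5 CPM in some group, were the homeobox gene Dmbx1 (r = 0.989), the bone matrix gene Ibsp (0.964), the forkhead gene Foxc2 (0.950), the neuronal pentraxin Nptx1 (0.945) and Tmem54 (0.936). The points of such a correlation share line and tissue, and the 4T1 tumors alone set the high end. Dmbx1 stood at 8.62 ± 2.65 CPM and Ibsp at 72.1 ± 17.0 CPM in 4T1 tumors (SD, n = 3). The highest other library held 0.231 CPM of Dmbx1 and 3.45 CPM of Ibsp. Among the members, Prss22 came nearest to Tmprss11e (r = 0.892).

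**Figure D1:**
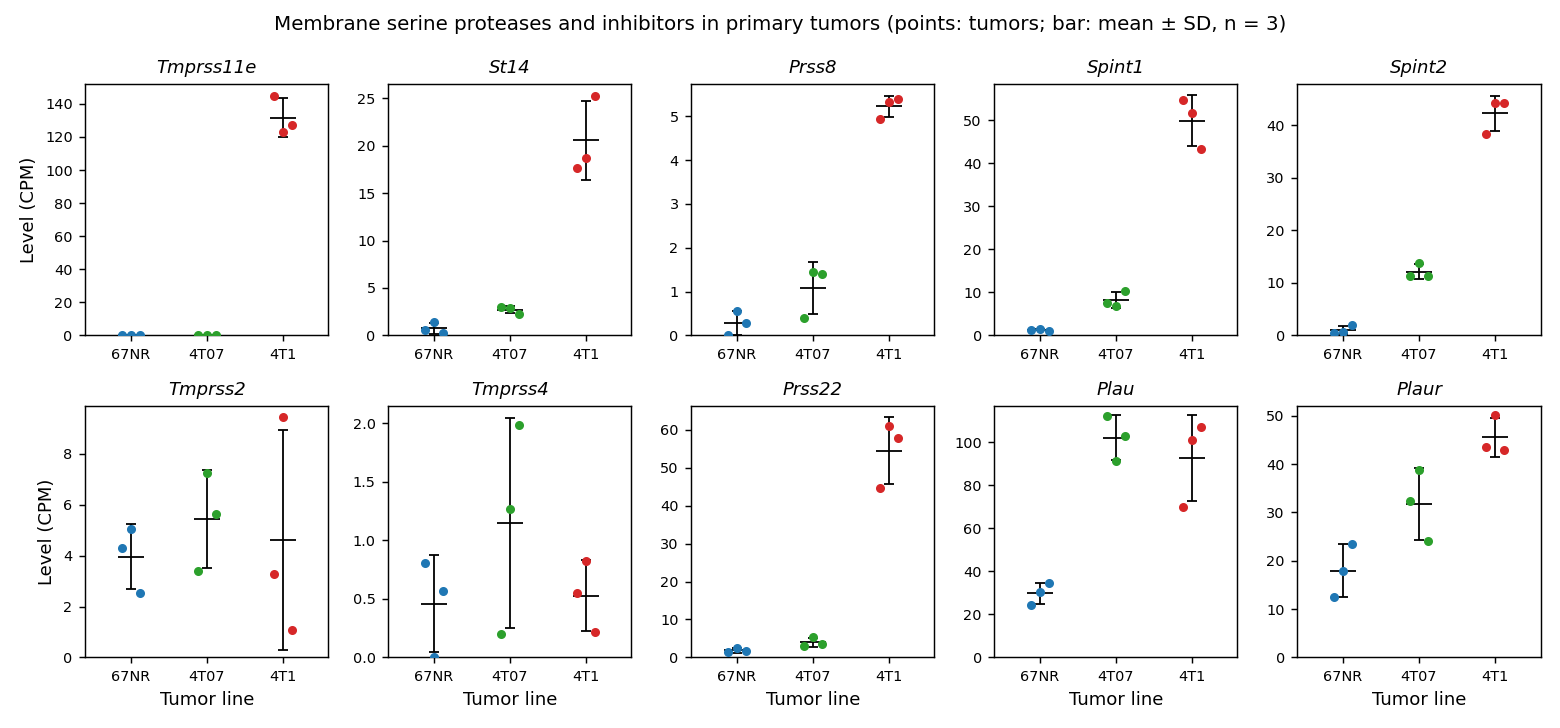
Levels in CPM of the 10 genes in the 9 primary tumors by line, with 1 point for each tumor and a bar for mean ± SD (n = 3), on linear axes that differ between panels. Tmprss11e was at 0 in 67NR and 4T07 tumors and between 123 and 145 CPM in 4T1 tumors, whereas Tmprss2 and Tmprss4 overlapped between the lines.

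The question between 4T07 and 67NR tumors was whether the other genes already differed between lines that both lacked Tmprss11e. Tmprss11e had no count in either line. Of the 9 genes with a count, 4 were higher in 4T07 tumors and none was lower, while 17.1% of the 20508 genes tested were called higher and 28.9% in either direction. The median log2 fold change of the 9 genes was 1.53, beside 0.16 over all genes tested. The 4 genes were both Kunitz inhibitors, matriptase and urokinase.

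Spint2 was read at 11.4, 13.8 and 11.3 CPM in 4T07 tumors and at 0.538, 0.56 and 1.98 CPM in 67NR tumors. The groups did not overlap, and the log2 fold change was 3.31 (SE 0.37, edgeR adjusted p = 6.11e-06). The 67NR level rested on 11 counts, with 1 of 3 libraries above the floor. Spint1 was read at 7.43, 6.89 and 10.4 CPM against 1.34, 1.4 and 1.13 CPM. Here too every 4T07 tumor lay above every 67NR tumor (log2 fold change 2.39, SE 0.33, adjusted p = 4.06e-05). The inhibitors thus stood several-fold higher in 4T07 tumors, at levels still below those in control lungs.

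St14 was read at 3.01, 2.9 and 2.26 CPM in 4T07 tumors and at 0.538, 1.4 and 0.282 CPM in 67NR tumors. All 4T07 tumors were above the 67NR tumors, by a log2 fold change of 1.61 (SE 0.50, adjusted p = 0.0183), but this rested on few counts. Without 67NR library 19 the adjusted p was 0.0584, without 67NR library 21 it was 0.0885, and without 4T07 library 31 it was 0.0508. With the 4T1 tumors left out of the fit it was 0.0622.

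Plau was read at 112, 91.3 and 103 CPM in 4T07 tumors and at 24.5, 30.5 and 34.4 CPM in 67NR tumors, with no overlap (log2 fold change 1.53, SE 0.20, adjusted p = 3.06e-05). Plaur, its receptor, was read at 32.3, 38.8 and 24 CPM against 12.6, 17.9 and 23.4 CPM. The receptor's groups were separate but close, and it was not called (log2 fold change 0.57, SE 0.24, adjusted p = 0.0673). Prss22, a trypsin-like protease of airway epithelium, was read at 3.01, 5.26 and 3.67 CPM against 1.34, 2.52 and 1.69 CPM. It was not called either (log2 fold change 0.86, SE 0.37, adjusted p = 0.0707), although it passed without 67NR library 20 (adjusted p = 0.0468). Prss8, Tmprss2 and Tmprss4 overlapped between the 2 lines, with log2 fold changes of 1.62, 0.21 and 0.98 and adjusted p-values of 0.129, 0.791 and 0.422.

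The list was chosen on the 4T1 tumors, so their values are a description and nothing is read from counts of genes there. Past the same threshold lay 8 of the 10 genes against 67NR tumors (20.7% of all genes) and 6 against 4T07 tumors (8.61%), Tmprss11e included in both. The comparisons share libraries. St14 was read at 17.7, 18.7 and 25.3 CPM in the 4T1 tumors (20.5 ± 4.10, SD, n = 3), which is 7.54-fold the mean of 4T07 tumors. In 67NR tumors the mean of 0.740 CPM rested on 8 counts, under the floor, and no fold is given. Prss8 was read at 4.94, 5.33 and 5.4 CPM, 4.80-fold the 4T07 tumors, and rested on 3 counts in the 67NR tumors. Both proteases were higher in each 4T1 tumor than in any tumor of the other lines.

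The inhibitors stood with them. Spint1 was read at 54.7, 51.7 and 43.4 CPM in 4T1 tumors, 38.7-fold the 67NR and 6.05-fold the 4T07 mean. Spint2 was read at 38.4, 44.3 and 44.2 CPM, 41.3-fold and 3.48-fold the same means. Its 67NR mean of 1.02 CPM rested on 11 counts, with 1 of 3 libraries above the floor. Prss22 was read at 44.6, 61.1 and 57.8 CPM, 29.4-fold and 13.7-fold. In the order of the 15 groups, 4T1 tumors were first for Tmprss11e, St14, Spint1, Spint2, Prss22 and Plaur, with no overlap with the second group except for Spint2, which overlapped with 67NR lungs.

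Plau was read at 70, 101 and 107 CPM in 4T1 tumors, 3.11-fold the 67NR mean, and these values overlapped with the 4T07 tumors. Plaur was read at 43.5, 50.2 and 43 CPM, 2.53-fold the 67NR and 1.44-fold the 4T07 mean. Tmprss2 was read at 3.29, 9.43 and 1.08 CPM and Tmprss4 at 0.549, 0.82 and 0.216 CPM in 4T1 tumors. For both genes the 3 lines overlapped, and for Tmprss2 the highest and lowest 4T1 tumors differed more than the line means.

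Epithelial markers differed between the lines as well. The summed level of 15 epithelial markers, among them Epcam, Cdh1 and the simple keratins, was 30.5 to 49.8 CPM in 67NR, 218 to 291 CPM in 4T07 and 1510 to 1640 CPM in 4T1 tumors. Not every marker followed the order of the sums. Krt5 and Krt19 had lower means in 4T1 than in 4T07 tumors, and Grhl2 a lower mean in 4T07 than in 67NR tumors. In 67NR tumors 11 of the 15 lay above the floor, Cldn3 and Ovol1 being at 0. In 4T07 and 4T1 tumors 14 lay above it. Between 4T07 and 67NR tumors, 9 of the 14 markers tested were called higher and none lower. The keratin pair Krt8 and Krt18 showed log2 fold changes of 4.02 (adjusted p = 1.92e-07) and 3.93 (adjusted p = 9.41e-08). Their part in the results for proteases was not tested, and in bulk tumors more cells of a type and more RNA per cell cannot be told apart.

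Markers of some other cell types differed too. The summed level of 7 fibroblast markers was 929 to 1140 CPM in 67NR, 4800 to 7120 CPM in 4T07 and 5740 to 8890 CPM in 4T1 tumors, so that the line with the lowest Plau also had the lowest fibroblast sum. Neutrophil markers, 8 in all, summed to 23.4 to 370 CPM in 67NR, 975 to 4830 CPM in 4T07 and 510 to 797 CPM in 4T1 tumors. Macrophage markers, 7 in all, were not lowest in 67NR tumors. They summed to 2170 to 2460 CPM in 67NR, 2300 to 2940 CPM in 4T07 and 1750 to 2170 CPM in 4T1 tumors. The 8 alveolar and airway markers were not at 0 in tumors: their sum was 58.6 to 392 CPM in 67NR, 23.7 to 115 CPM in 4T07 and 15.5 to 21.9 CPM in 4T1 tumors. Tmprss2, whose level was highest in lungs, was not called between 4T07 and 67NR tumors. The part of these markers in the results was not tested.

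Genes around the pathway were taken from 5 lists, and between 4T07 and 67NR tumors 25 of the 45 tested were called in either direction, beside 28.9% of all genes. The count filter took in the 4T1 tumors too, and the lists were chosen with results known, so these counts support nothing. Of 22 other membrane-anchored serine proteases only 7 reached the count filter, with 3 higher and 1 lower in 4T07 tumors. Matriptase-2 (Tmprss6), known for control of hepcidin in liver, was at 1.58 CPM in 4T07 tumors and had 2 counts, in 1 library, in 67NR tumors (adjusted p = 0.0206). Tmprss13 was at 1.49 against 0 CPM (at least 1.79-fold higher, adjusted p = 0.00359), and Prss41 was lower, at 0.510 against 2.01 CPM (adjusted p = 0.0224). Of the other Tmprss11 genes, only Tmprss11a and Tmprss11f reached the filter, both on few counts. Of 13 kallikrein-related peptidases, 4 were tested: Klk8 was higher in 4T07 tumors (11.2 CPM against 0.828 CPM, just under the floor, adjusted p = 1.49e-04) and Klk1 was lower (3.07 against 5.42 CPM, adjusted p = 0.0441).

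In the plasminogen system 11 of 13 genes were tested, 3 were higher and 2 lower in 4T07 than in 67NR tumors, and the median log2 fold change was -0.09. Serpinb2 and Serpine2, inhibitors of plasminogen activators, were among the higher genes. Serpinb2 was at 46.7 against 0.564 CPM (adjusted p = 1.58e-04) and Serpine2 at 256 against 15.0 CPM (adjusted p = 8.26e-07). In 4T1 tumors, as a description, the means were 23.0 CPM for Serpinb2 and 167 CPM for Serpine2. Plau and both of these inhibitors thus had lower means in 67NR tumors than in those of the other lines.

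Of 12 further protease inhibitors of epithelium, 9 were tested, 5 were higher and 1 lower in 4T07 tumors, with a median log2 fold change of 2.12. Wfdc2 was at 342 against 4.91 CPM (adjusted p = 1.58e-08), and Slpi, the secretory leukocyte peptidase inhibitor, at 1005 against 88.4 CPM (adjusted p = 1.26e-07). Tfpi, which inhibits the tissue factor pathway, was at 45.7 against 8.78 CPM (adjusted p = 2.09e-06). In 4T1 tumors Wfdc2 had a mean of 523 CPM, whereas Slpi was at 209 and Tfpi at 14.0 CPM, 4.80-fold and 3.28-fold below 4T07 tumors. Maspin (Serpinb5) was at 4.49 CPM in 4T1 and 0.610 CPM in 4T07 tumors. These inhibitors therefore had no common order over the 3 lines.

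Of 16 substrates and receptors, 14 were tested, with 7 higher and 1 lower in 4T07 tumors and a median log2 fold change of 1.68. Cldn7, a junction protein on this list, was at 26.2 against 3.04 CPM (adjusted p = 4.99e-07), and cutting of proteins was not measured. Mst1, the precursor of macrophage-stimulating protein, was lower, at 0.455 against 3.48 CPM (adjusted p = 0.00297). In 4T1 tumors Epcam had a mean of 215 CPM. F2rl1, the protease-activated receptor 2, was at 65.1 CPM in 4T1, 4.63 CPM in 4T07 and 0.831 CPM in 67NR tumors.

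In control mice the genes separated the tissues. Against control scaffolds, control lungs were higher for St14, Prss8, Spint1, Spint2, Tmprss2 and Tmprss4 and lower for Plau, so that 7 of 8 genes tested were called where 32.6% of all genes were. Tmprss2, known as an airway protease that primes viral spike proteins, was read at 40.8, 45.4 and 46.8 CPM in lungs and at 2.94, 0.95 and 1.89 CPM in scaffolds (log2 fold change 4.34, SE 0.31, adjusted p = 2.19e-08). Plau was the reverse, at 8.72, 9.74 and 8.09 CPM in lungs and 162, 104 and 106 CPM in scaffolds (log2 fold change -4.03, SE 0.23, adjusted p = 1.94e-09). Neither gene overlapped between these tissues.

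Control spleens had the lowest mean of the 3 control tissues for Prss8, Spint1, Tmprss2, Plau and Plaur. No count of Prss8 was found in them, and lungs were at least 28.0-fold higher. Tmprss2 had 1 count in the control spleens, against a mean of 44.3 CPM in control lungs. Against spleens, lungs were called higher for 5 of 8 genes tested (39.9% of all genes were called), and scaffolds were called higher for 5 and lower for 1 (34.5%). The gene lower in scaffolds was St14, at 0.839, 1.11 and 2.05 CPM against 3.88, 2.77 and 4.31 CPM in spleens (log2 fold change -1.25, SE 0.38, adjusted p = 0.0142). Of the scaffold calls, Prss8 rested on levels at or near the floor and was lost without control library 3 (adjusted p = 0.119).

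**Figure D2:**
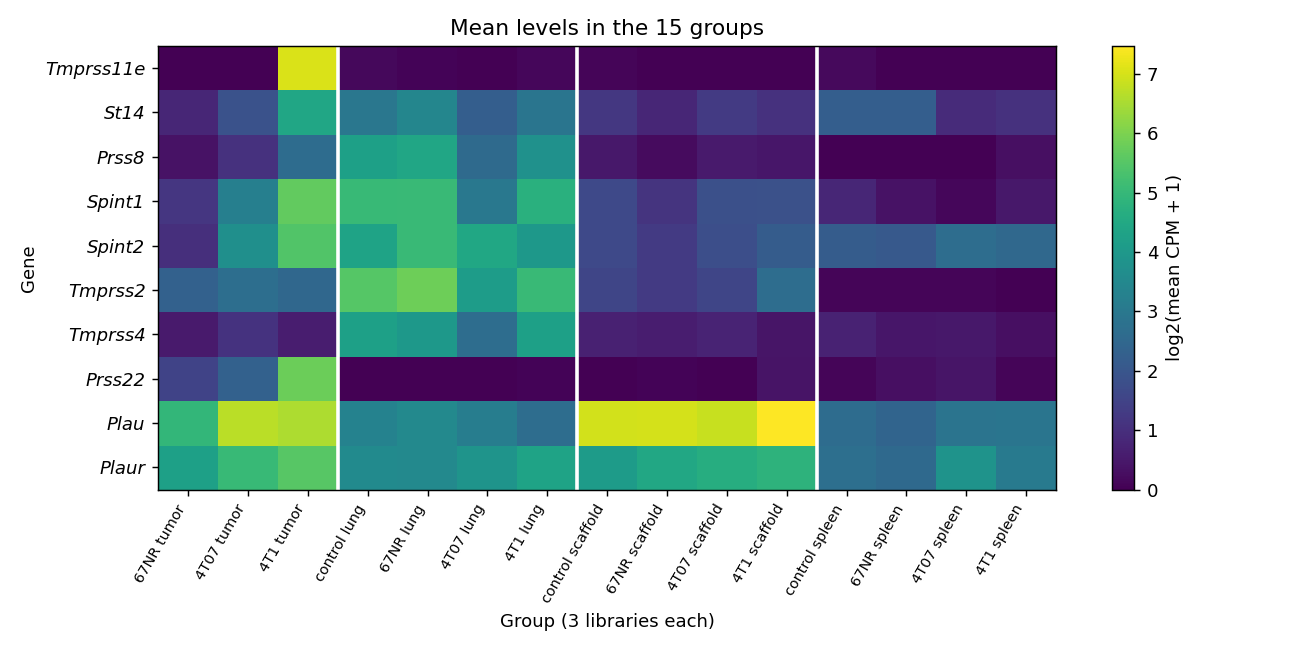
Mean level of each gene in the 15 groups (3 libraries each) as log2(mean CPM + 1) by colour, with genes in rows and groups in columns, set apart by tissue. Tmprss11e and Prss22 were bright in 4T1 tumors, Tmprss2, Tmprss4 and Prss8 in lungs, and Plau in tumors and scaffolds.

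Tumors were also set against the scaffolds and lungs of mice with the same line, for 67NR and 4T07. Tumors of 67NR mice were lower than lungs for 6 genes and higher for 3, among 37.3% of all genes called, and the lower genes included Spint1 (24.9-fold), Spint2 (31.9-fold) and St14 (0.740 against 9.81 CPM, the first under the floor). The Spint2 level in 67NR tumors rested on 11 counts. Prss22 was at least 3.71-fold higher in 67NR tumors than in 67NR lungs (adjusted p = 7.51e-06), in none of which it had a count. Plaur was also called higher than in 67NR lungs, but fell below 2-fold under some alternatives. Its log2 fold change was 0.97 with no count filter, 0.91 with at least 10 counts in every library and 0.80 without library 21. Against 67NR scaffolds, 3 genes were called (28.5% of all genes): Prss22 was higher, with 1 count in the scaffolds and 20 in the tumors, and Plau was 4.21-fold lower (adjusted p = 8.37e-08). Tmprss2 was higher by a log2 fold change of 1.44 (adjusted p = 0.0474), a call that was lost without any of the 67NR scaffold libraries 10 and 11 or tumor libraries 19 and 20, with adjusted p-values from 0.0897 to 0.187.

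Tumors of 4T07 mice differed from 4T07 scaffolds in Spint1 (3.24-fold higher, adjusted p = 1.44e-04), Spint2 (4.87-fold higher, adjusted p = 4.83e-04) and Prss22 (at least 8.39-fold higher, adjusted p = 2.13e-07), where 17.0% of all genes were called. DESeq2 also called Tmprss2 higher (log2 fold change 1.35, adjusted p = 0.0452), as did edgeR with DESeq2 size factors (0.043), with no count filter (0.0014), with only the groups compared (0.0322) and without library 23 (0.0292) or 31 (0.028). Against 4T07 lungs, 21.4% of all genes were called. There Prss8, Tmprss2 and Tmprss4 were lower in tumors and Prss22, Plau and Plaur higher. The call of Prss8 was lost without 4T07 library 27 (adjusted p = 0.0951). Plau was 12.7-fold higher (adjusted p = 1.47e-12). In both lines whose tumors had no count of Tmprss11e, Prss22 was higher in tumors than in scaffolds and lungs of mice with the same line.

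In scaffolds none of the genes was called in any of the 6 comparisons between control, 67NR, 4T07 and 4T1 mice. Of 48 tests in edgeR, 9 had an unadjusted p under 0.05, the lowest adjusted p was 0.106, and DESeq2 called 0 as well. Few genes of any kind were called there: 0% between 67NR and control scaffolds, 7.44% between 4T07 and control, 0.0226% between 4T1 and control, 5.85% between 4T07 and 67NR, 0.0226% between 4T1 and 67NR and 1.00% between 4T1 and 4T07 scaffolds. Plaur was read at 24, 25.7 and 31.8 CPM in 4T1 scaffolds and at 15.3, 15.5 and 17.3 CPM in control scaffolds. The values did not overlap, but the change was below 2-fold and did not pass (log2 fold change 0.65, SE 0.20, adjusted p = 0.250).

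Plau was read at 116, 302 and 111 CPM in 4T1 scaffolds, 76.3, 109 and 156 CPM in 4T07 scaffolds and 110, 125 and 140 CPM in 67NR scaffolds. These groups overlapped with each other and with the controls. Tmprss2 was read at 5.71, 8.95 and 1.44 CPM in 4T1 scaffolds. With no count filter edgeR called it higher than in control scaffolds (adjusted p = 0.0509), in 67NR scaffolds (adjusted p = 0.00475) and in 4T07 scaffolds (adjusted p = 0.0126), calls that the filter of more than 10 counts did not give. Alveolar and airway markers were present in scaffolds, with sums of 93.8 to 312 CPM in control and 62.3 to 144 CPM in 4T1 scaffolds.

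Lungs gave 13 calls over 6 comparisons, 12 of them with 4T07 lungs and none between 67NR and control lungs, where 4.25% of all genes were called and 1 of the 8 members had an unadjusted p under 0.05 in edgeR, with 0 calls in DESeq2. Against control lungs 4 of 8 genes were lower in 4T07 lungs and none was higher, where 13.7% of all genes tested were called lower and 29.0% in either direction. The median log2 fold change of the 8 genes was -1.09, beside -0.01 over all genes. Spint1 was read at 5.93, 5.99 and 8.89 CPM in 4T07 lungs and at 27.5, 37.3 and 29.9 CPM in control lungs. All 4T07 lungs lay far below the controls (log2 fold change -2.12, SE 0.22, adjusted p = 1.61e-07).

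The proteases Prss8, Tmprss2 and Tmprss4 fell with it. Prss8 was read at 3.81, 1.65 and 9.33 CPM in 4T07 lungs and at 17.1, 21.1 and 15.5 CPM in control lungs (log2 fold change -1.80, SE 0.35, adjusted p = 2.74e-04). Tmprss2 was read at 16.9, 9.91 and 22.6 CPM against 40.8, 45.4 and 46.8 CPM (log2 fold change -1.37, SE 0.21, adjusted p = 2.34e-05). Tmprss4, a protease of gut and airway epithelium, was read at 5.93, 1.86 and 8.24 CPM against 16, 20 and 17.5 CPM (log2 fold change -1.68, SE 0.31, adjusted p = 1.52e-04). The second 4T07 lung was the lowest of the 3 for all these proteases, and no gene overlapped with the controls. St14 was read at 3.81, 3.3 and 3.9 CPM against 7.15, 7.39 and 5.83 CPM, lower in every lung but below the 2-fold threshold (log2 fold change -0.82, adjusted p = 0.0109).

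Spint2 was not called. It was read at 15.9, 15.1 and 31.9 CPM in 4T07 lungs and at 16.2, 18.6 and 22.7 CPM in control lungs, which overlapped (log2 fold change 0.19, SE 0.26, adjusted p = 0.600). Whether Spint1 and Spint2 differed from each other in this response was not tested. The ratio of Spint1 to St14 counts was 1.56 to 2.28 in 4T07 lungs and 3.85 to 5.14 in control lungs.

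**Figure D3:**
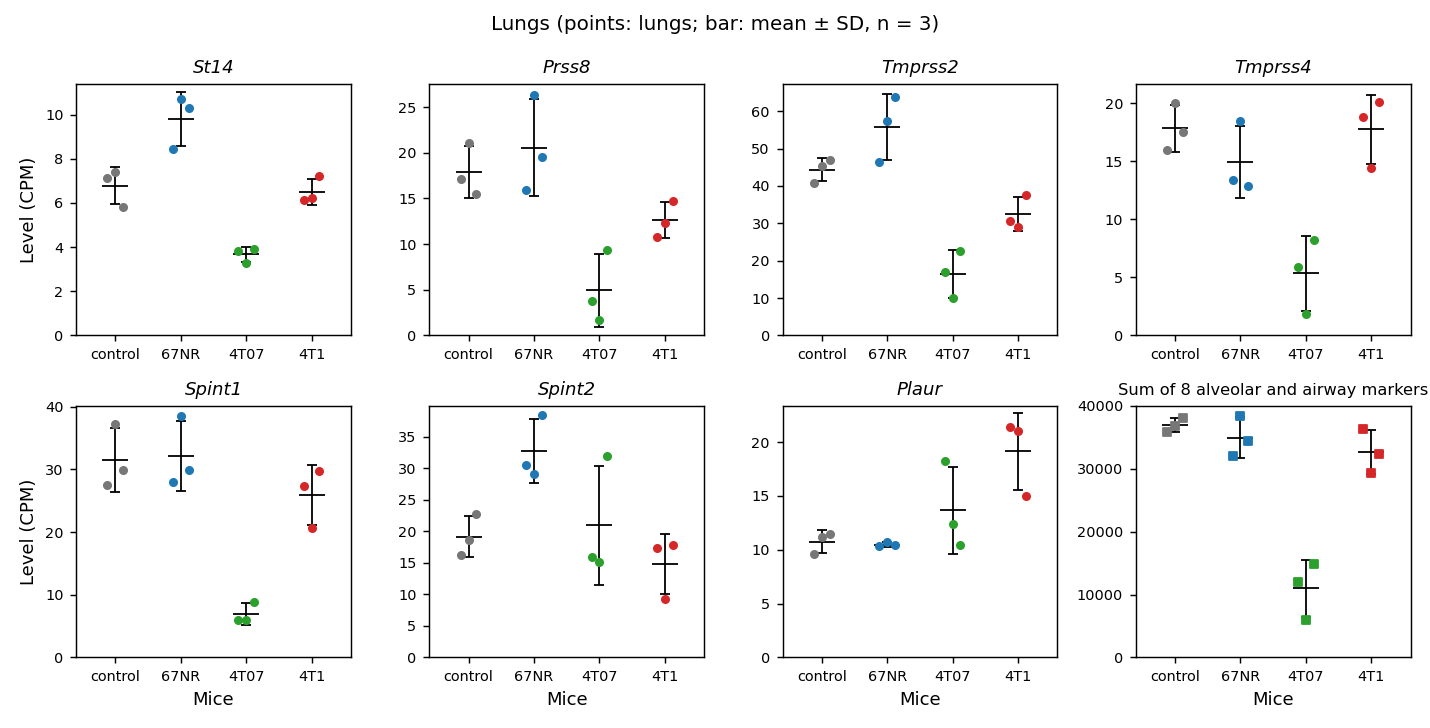
Levels in CPM of 7 of the genes, and the summed CPM of 8 alveolar and airway markers, in lungs of control, 67NR, 4T07 and 4T1 mice, with 1 point for each lung and a bar for mean ± SD (n = 3). Prss8, Tmprss2, Tmprss4, Spint1 and the marker sum were lowest in the 4T07 lungs, where the sum was 6000 to 14900 CPM against 35900 to 38100 CPM in controls.

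Markers of the lung epithelium were lower in the same libraries. The alveolar and airway sum was 6000 to 14900 CPM in 4T07 lungs, 35900 to 38100 CPM in control lungs and 29300 to 36300 CPM in 4T1 lungs, with all 8 markers above the floor in every group. Epithelial markers summed to 263 to 580 CPM in 4T07 and 960 to 1110 CPM in control lungs, and 10 of 14 were called lower and 2 higher. Neutrophil markers summed to 21900 to 26000 CPM in 4T07, 11500 to 27000 CPM in 4T1 and 234 to 294 CPM in control lungs. The part of these markers in the results was not tested.

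The 4T07 lungs were also below the 67NR lungs, in 5 genes (29.7% of all genes called): St14 (log2 fold change -1.25), Prss8 (-1.91), Spint1 (-2.05), Tmprss2 (-1.60) and Tmprss4 (-1.32). Adjusted p-values lay between 2.90e-07 for Spint1 and 0.00168 for Tmprss4. These share the 4T07 libraries with the comparison above. Without 4T07 library 26 Tmprss4 fell below the 2-fold threshold (log2 fold change -0.91).

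None of the 8 genes was called between 4T1 and control lungs in edgeR, where 4.61% of all genes were; 3 had an unadjusted p under 0.05, and DESeq2 called 0. For Spint1 the log2 fold change was -0.27 (SE 0.19, adjusted p = 0.450), with values of 27.4, 20.6 and 29.7 CPM. Against 4T07 lungs, 4T1 lungs were higher in Spint1 (log2 fold change 1.85, SE 0.22, adjusted p = 1.39e-06), Tmprss4 (1.69, SE 0.31, adjusted p = 1.71e-04) and Prss8 (1.31, SE 0.36, adjusted p = 0.00603), among 23.5% of all genes called. Without 4T07 library 26 the change of Prss8 was below 2-fold (0.88).

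Plaur was read at 21.4, 21 and 15 CPM in 4T1 lungs and at 9.59, 11.2 and 11.5 CPM in control lungs. The 4T1 lungs were higher without overlap, at an adjusted p of 0.0135, but by less than the 2-fold threshold (log2 fold change 0.85, SE 0.21). Plau in the same lungs was at 3.86, 4.66 and 7.5 CPM against 8.72, 9.74 and 8.09 CPM (log2 fold change -0.71, SE 0.26, adjusted p = 0.105). The ratio of Plau to Plaur counts was 0.18 to 0.50 in 4T1 lungs and 0.704 to 0.909 in control lungs. Spint2 was the only gene called between 4T1 and 67NR lungs (5.03% of all genes), at a log2 fold change of -1.02 (SE 0.26, adjusted p = 0.0169), and this was lost without 67NR library 15 or 4T1 library 38. Plaur was called too with only the groups compared (adjusted p = 0.0047), without library 14 (0.0189) and without library 39 (0.0018), and Plau without library 39 (0.00988).

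In spleens 6 genes were tested, and St14 and Plaur gave 6 of the 7 calls. None was called between 67NR and control spleens (2.26% of all genes) or between 4T1 and 4T07 spleens (2.33%) in edgeR, with 0 and 1 of the 6 genes at an unadjusted p under 0.05, and DESeq2 called 0 in both. St14 was read at 1.03, 1.04 and 0.573 CPM in 4T07 spleens, at 0.240, 1.71 and 1.37 CPM in 4T1 spleens and at 3.88, 2.77 and 4.31 CPM in control spleens. The spleens of both lines lay below all controls. St14 rested on 13 counts in the 4T07 and 14 in the 4T1 spleens, with 2 of 3 libraries above the floor in each. The log2 fold change was -1.81 for 4T07 (SE 0.47, adjusted p = 0.00977, 18.6% of all genes called) and -1.45 for 4T1 (SE 0.47, adjusted p = 0.0290, 19.9% called). The second of these was lost without 4T1 library 40 (log2 fold change -0.98, adjusted p = 0.121).

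Against 67NR spleens, at 3.56, 3.58 and 4.04 CPM, St14 was lower in 4T07 (log2 fold change -1.74, adjusted p = 0.0168, 14.7% of all genes called) and in 4T1 spleens (-1.38, adjusted p = 0.0372, 20.7% called). The second was lost without 4T1 library 40 (adjusted p = 0.148). Matriptase is also made by some immune cells. The 5 B cell markers summed to 1160 to 1620 CPM in control, 1440 to 1680 CPM in 67NR, 402 to 479 CPM in 4T07 and 283 to 494 CPM in 4T1 spleens, and their part in the results was not tested.

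Plaur was read at 13.6, 16.4 and 10.3 CPM in 4T07 spleens and at 6.8, 6.23 and 3.88 CPM in control spleens. It was higher in every 4T07 spleen (log2 fold change 1.43, SE 0.34, adjusted p = 0.00505), and also against 67NR spleens (1.75, SE 0.35, adjusted p = 0.00217). In 4T1 spleens it was at 8.39, 4.16 and 9.6 CPM and was not called against controls (log2 fold change 0.65, SE 0.35, adjusted p = 0.188). Neutrophil markers summed to 22300 to 27200 CPM in 4T07, 11900 to 30600 CPM in 4T1 and 958 to 1680 CPM in control spleens, and their part was not tested. Spint1 was called lower in 4T07 than in control spleens (log2 fold change -2.75, adjusted p = 0.0946), but it had 1 count in the 4T07 and 10 in the control spleens and was not called by DESeq2 (adjusted p = 0.161).

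**Figure D4:**
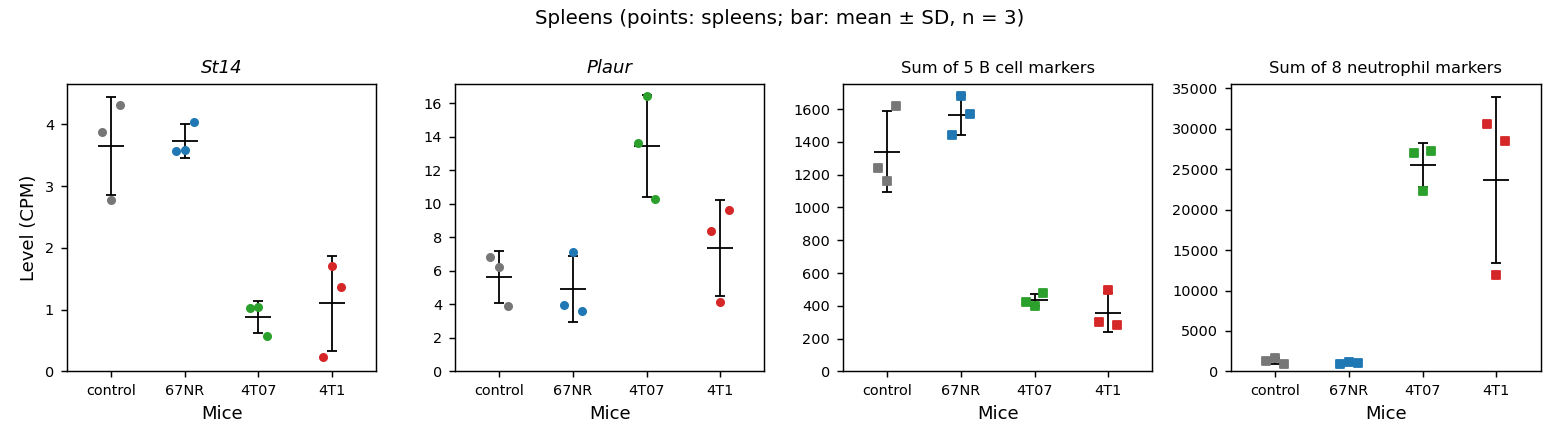
Levels in CPM of St14 and Plaur, and the summed CPM of 5 B cell and 8 neutrophil markers, in spleens of control, 67NR, 4T07 and 4T1 mice, with 1 point for each spleen and a bar for mean ± SD (n = 3). St14 and the B cell sum were lower, and the neutrophil sum higher, in all 4T07 and 4T1 spleens than in any control spleen.

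The changes against control mice were set against each other between tissues, in 60 tests of genes that passed the filter in both tissues, over 3 lines and 3 pairs of tissues. A difference was called for 3 genes. The log2 fold change of Spint1 in 4T07 mice was -2.12 in lungs and 0.11 in scaffolds (edgeR interaction, difference -2.35, SE 0.42, adjusted p = 5.84e-05, 18.7% of all genes called). This was the only difference that stayed past the threshold whichever of its 12 libraries was left out. The others concerned St14, Spint1 and Plaur in spleens of 4T07 mice against scaffolds (15.1% of all genes called), Plaur in lungs against spleens of 4T07 mice (20.6%) and St14 in lungs against spleens of 4T1 mice (15.5%). The calls were 1 of 8, 3 of 6, 1 of 6 and 1 of 6 genes in these 4 comparisons.

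The balance of the genes was also read as ratios of counts within a library. The ratio of Spint1 to St14 lay at 2.38 to 4.62 in 4T07 tumors and 1.72 to 3.08 in 4T1 tumors, although the levels of both genes were several-fold higher in the latter. In 67NR tumors it ranged from 1.00 to 4.00 on 14 and 8 counts. In control spleens it was 0.10 to 0.42. The ratio of Plau to Plaur lay above 1 in all tumors and scaffolds, from 1.47 to 1.94 in 67NR tumors and from 6.10 to 10.5 in control scaffolds. These ratios are descriptions of unequal counts.

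**Figure D5:**
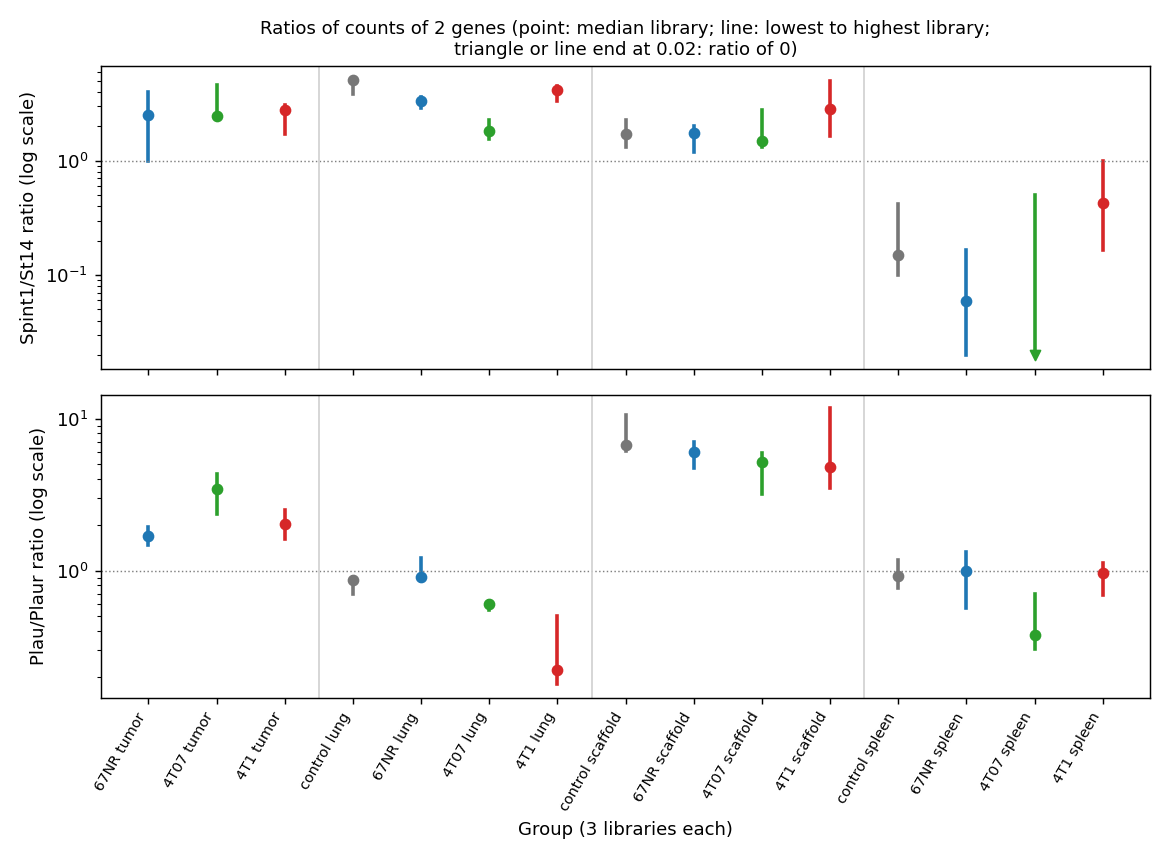
Ratio of Spint1 to St14 counts (top) and of Plau to Plaur counts (bottom) in the 15 groups on log axes, with the median library as a point and the lowest to highest library as a line; a ratio of 0 is drawn at the lower end. Spint1 to St14 lay below 1 in spleens except in 1 4T1 spleen at 1.00, and Plau to Plaur lay above 1 in every tumor and scaffold.

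Over the 45 libraries the members fell into different company. Prss8 followed Spint1 (r = 0.905) and Tmprss4 (r = 0.904), and St14 followed Spint2 (r = 0.818) and Spint1 (r = 0.810), on the log2(CPM + 1) scale. Outside the list, the genes most like Prss8 were Rasef (r = 0.974), Cemip2 (0.970) and the laminin chain Lama3 (0.968). Those most like St14 were Tmie (0.906), the integrin Itga2 (0.891) and Eya2 (0.882), and those most like Plaur were Rhou (0.857), Inhbb (0.854) and the AP-1 member Fosl2 (0.851). These values carry tissue differences above all and are given without a test.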

How the data were processed

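RNA of scaffolds, lungs, spleens and tumors was sequenced by the authors as 3′ tag libraries (QuantSeq 3′ FWD with unique molecular identifiers). The submitters' processing notes name Trim Galore 0.5.0, STAR 2.6.0 and featureCounts. Genome build, annotation, strand setting and collapsing of identifiers are not given in the sources used here. The deposited values are raw counts per gene symbol; 120 repeated lines of 55487 were added up, giving 55367 symbols. Totals per library were 3491888 to 8175380 counts, which limits the precision of low genes.

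Each tissue, the control tissues, and all 45 libraries (tumors against scaffolds and lungs of the same line, and differences of effects between tissues) were fitted with edgeR 4.0.16 (R 4.3.3) on genes with more than 10 counts over the fit, and p-values were adjusted over all genes (Benjamini-Hochberg). Differences between tissues were called at an adjusted p under 0.10. Fold bounds used a floor of 3 counts per library. DESeq2 1.42.0, its size factors, other filters, only the groups compared and each library left out were tried; the 45-library fit without a library kept the dispersion trend of all 45. On simulated data the steps called 98.5% of 200 changed genes in the comparison of 4T07 with 67NR tumors, run on 19934 genes. Of the genes called there, 3.9% had not been changed. The changed genes were drawn above a set mean level and changed well past the fold threshold, at a fixed dispersion. The share therefore does not describe how often a change of a low gene is called. The 45 pairs of libraries within groups held no identical pair (r from 0.982 to 0.995).

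The members, the related lists and the marker lists were chosen with earlier results of these data known. Named were all members, for each list and tumor comparison up to 3 called genes with the largest change and no overlap, the Tmprss11 cluster, the genes most like Tmprss11e (5), St14, Prss8 and Plaur (3 each), and markers. Slpi, Tfpi, Epcam, F2rl1 and Serpinb5 were named under the 4T1 comparisons.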

Additional observations from a re-analysis of the deposited data

Results flagged for a closer look

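For 6 of the 60 tests of genes that passed the filter in both tissues, the change against control mice differed between tissues (edgeR interaction test in the fit of all 45 libraries, adjusted p under 0.10). In the comparisons with a called member, 15.1% to 20.6% of all genes were called. The shares for the comparisons without one are not given, so the number 6 is not read as a result about the members. Spint1 responded differently to 4T07 tumors in lungs and scaffolds: its log2 fold change was -2.12 in lungs and 0.11 in scaffolds, and the difference of lung minus scaffold was -2.35 (SE 0.42, adjusted p = 5.84e-05). For spleen minus scaffold the difference of Spint1 was -2.94 (SE 0.97, adjusted p = 0.0565), resting on few spleen counts. St14 differed in 4T07 mice by -1.69 for spleen minus scaffold (SE 0.59, adjusted p = 0.0572), from -1.81 in spleens and -0.10 in scaffolds. St14 differed in 4T1 mice by 1.41 for lung minus spleen (SE 0.50, adjusted p = 0.0594), from -0.04 in lungs and -1.45 in spleens. Plaur in 4T07 mice differed by 0.99 for spleen minus scaffold (SE 0.38, adjusted p = 0.0868) and by -1.14 for lung minus spleen (SE 0.39, adjusted p = 0.0379), from 1.43 in spleens, 0.44 in scaffolds and 0.41 in lungs. With each of the 12 libraries behind a value left out in turn, the difference of Spint1 between lungs and scaffolds was not lost (adjusted p from 2.82e-05 to 0.00141). The differences of St14 and Spint1 for spleen minus scaffold in 4T07 mice were lost in 5 and 4 of 12 cases, those of Plaur for spleen minus scaffold and lung minus spleen in 9 and 2, and that of St14 for lung minus spleen in 4T1 mice in 4; the highest adjusted p-values were 0.122, 0.204, 0.250, 0.141 and 0.262.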

How the results depend on the processing

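No paired analysis was possible because the labels do not tie tissues to a mouse and the library numbers differ between all groups. With each library left out in turn, the number of members called ranged from 3 to 5 for 4T07 against 67NR tumors, 7 to 8 for 4T1 against 67NR tumors, 6 to 6 for 4T1 against 4T07 tumors, 0 to 1 in scaffolds, 11 to 16 in lungs, 4 to 9 in spleens, 17 to 19 in control tissues and 20 to 22 for tumors against scaffolds and lungs. The list was chosen on the 4T1 tumors, Tmprss11e included. The ranges of the 4T1 tumor comparisons are therefore a description, and their narrowness supports nothing. Differences between tissues ranged from 2 to 8; they fell to 2 of 6 without control spleen library 9 and to 3 without 4T07 spleen library 29, and the 7 spleen calls fell to 4 without 4T1 library 40. In scaffolds 1 member was called without library 24 or 35. Related genes called ranged from 22 to 25, 19 to 22 and 9 to 12 in the same 3 tumor comparisons, 7 to 10 in scaffolds, 76 to 106 in lungs and 45 to 56 in spleens. The level of Tmprss11e in 4T1 tumors ranged from 125 to 136 CPM.

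Requiring 10 counts in every library removed the low genes and left fewer calls: 1, 2 and 0 members in the 3 tumor comparisons (4T07 and 4T1 against 67NR, 4T1 against 4T07), 7 in lungs, 2 in spleens, 3 in control tissues, 4 for tumors against tissues and 3 differences between tissues. The numbers for the 4T1 tumor comparisons are a description here too. Related genes called were then 12, 9 and 3 in tumors, 5 in scaffolds, 47 in lungs and 13 in spleens. No count filter gave 3 members in scaffolds, 10 differences between tissues and 16 related genes in scaffolds; the cause was not tested. DESeq2, its size factors in edgeR and a fit of only the groups compared moved no count by more than 1.5 times. Directions were compared outside the comparisons of 4T1 tumors only. There no called member changed its direction under any alternative run. Depth limits Prss8 and Tmprss4 in scaffolds and spleens, where a few counts set the level. The same holds for St14 and Spint2 in 67NR tumors and for St14 in 4T07 and 4T1 spleens.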
